A study of Homo sapiens with 12 samples.

Results

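Dense FOXA1 chains are stretches of the LNCaP genome in which many FOXA1 binding regions lie close together. The peak lists of both DMSO-treated FOXA1 libraries were merged wherever peaks shared at least 1 base, and regions on chromosomes 1 to 22 with a peak in both lists were kept. Regions whose centres were at most 12500 bases apart were joined into chains, and chains of 5 or more regions were kept. This gave 2218 regions in 393 chains, which is 4.01% of the 55297 regions and 393 of all 39539 chains. The members were thus chosen by their peak calls in the DMSO libraries, so those calls are a description and carry no test. The lists hold no histone mark or other sign of enhancer activity, so the members are called dense chains here and their activity was not analysed.

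FOXA1 is a forkhead transcription factor that can bind its sites in closed chromatin and open them for other factors, among them the androgen receptor in prostate cells. Binding sites of such factors often lie in clusters, and clusters of strong sites are a known feature of enhancers that control lineage genes. HA is a short peptide tag, and an antibody against it pulls down only a tagged protein.

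LNCaP is an established androgen-responsive prostate cancer line. A total of 8 libraries were made with an antibody against FOXA1 after 7 days with DMSO as vehicle, with 1 µM EPZ-6438, with 3 µM P5091, or with both compounds at those doses (the combination), with 2 libraries per group. EPZ-6438 inhibits the histone methyltransferase EZH2, the catalytic subunit of Polycomb repressive complex PRC2, and P5091 inhibits the deubiquitinase USP7. A further 4 libraries used an antibody against HA, 5 days after infection, with 1 library each: cells with the pGIPZ control, cells with shFoxA1 alone, cells with shFoxA1 plus HA-tagged WT FOXA1, and cells with shFoxA1 plus HA-tagged K295A, a FOXA1 with alanine in place of a lysine. The first 2 carry no tagged protein in their labels and serve as background. All come from the same cell line. Nothing in the labels tells whether replicates came from separate cultures, and the p-values cover the spread between these libraries alone.

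The FOXA1 libraries held 12299238 to 22589685 tags and the HA libraries 11640056 to 13694090. The measure throughout is the normalized tag count, the tags in a peak scaled to a library of 10000000 tags. Combination replicate 1 stood apart from the other 7 FOXA1 libraries: peaks took up 5.26% of its tags, where the others had 18.9% to 21.2%, and its list held 30811 peaks, against 68504 to 84423. Each result that rests on it is given with and without it.

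The chains were short in most cases. Of the 393, 251 held 5 regions, 81 held 6, 32 held 7, 19 held 8, 4 held 9, 3 held 10, 1 held 11 and 2 held 12. Their span from first to last base had a median of 28824 bases, from 11330 to 75529. Inside them neighbouring centres were a median of 6364 bases apart (n = 1825), against 26603.5 bases between all neighbouring regions. Just outside the rule on length lay 671 chains of 4 regions. The rule on distance falls where neighbour distances are dense: 538 lay in the last 500 bases inside it and 556 in the next 500 bases outside.

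Dense chains were spread over all 22 chromosomes, but not evenly. Members made up 6.06% of the regions on chromosome 20 and 5.97% on chromosome 21. They made up 2.16% on chromosome 13 and 2.19% on chromosome 9. Their share on chromosome 1 was 4.75%, with 254 members in 45 chains. Chromosomes 20 and 21 therefore held the highest shares and 13 and 9 the lowest.

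The largest chains, in the coordinates of hg19 that the files use, were chr12:65272372-65340419 and chr6:15383117-15458645 with 12 regions each and chr16:48263066-48332168 with 11. Chains of 10 regions lay at chr3:174780877-174845427, chr1:149782391-149844573 and chr2:189145609-189209647. Chains of 9 lay at chr6:110944307-111003134, chr7:38280685-38332364, chr6:144635630-144706593 and chr1:79294360-79361762. Which genes these spans hold or neighbour was not analysed here, as no annotation of hg19 was used.

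In the chr12 chain, the strongest region in DMSO lay at one end, at chr12:65340055-65340419, with 106.0 and 67.3 tags in the DMSO libraries. The same region had 123.3 and 54.5 with P5091, 59.3 and 56.1 with EPZ-6438, and 14.4 and 39.5 with the combination. Both EPZ-6438 values and both combination values were below both DMSO values, whereas the P5091 values lay on either side of them. A region in the left part of the chain, chr12:65287846-65288210, had 39.5 and 34.3 tags in DMSO. It had 44.4 and 67.8 with P5091, 41.2 and 59.4 with EPZ-6438, and 28.8 and 60.0 with the combination. Both EPZ-6438 values there were above both DMSO values, but so were both P5091 values, and the combination values lay on either side. The limma log2 difference of EPZ-6438 from DMSO (tag count + 1) was -0.54 ± 0.59 (SE) at the first region and 0.42 ± 0.60 at the second. In that fit each is smaller than its standard error. A second limma fit, described below, adds a term for replicate number and centres each library. It gave -0.49 ± 0.26 and 0.47 ± 0.26 (adjusted p = 0.397 and 0.439). For the combination it gave -1.10 ± 0.26 and 0.85 ± 0.26 (adjusted p = 0.00826 and 0.0497), against adjusted p = 0.348 and 0.85 in the first fit. Opposite directions are thus not established with EPZ-6438 alone, and with the combination they rest on the second fit. The region chr12:65327609-65328005, with 18.3 and 10.4 tags in DMSO, was called in none of the 6 treated libraries.

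The chr6 chain of 12 had 1 region well above the others, chr6:15397003-15397367, with 56.3 and 47.0 tags in DMSO. It had 47.0 and 46.6 with P5091, 47.8 and 43.9 with EPZ-6438, and 10.6 and 48.1 with the combination. It was the only one of the 12 called in combination replicate 1, while combination replicate 2 called 10 of 12. In the chr16 chain, chr16:48326352-48326716 led with 74.6 and 77.2 tags in DMSO and had 66.5 and 58.1 with P5091. It had 41.2 and 35.0 with EPZ-6438 and 20 and 45.8 with the combination, so all 4 libraries with EPZ-6438 were below all 4 without. At the other end of that chain, chr16:48263066-48263430 had 37.3 and 20.9 tags in DMSO and 50.9 and 45.5 with EPZ-6438, both above DMSO. In the combination libraries this region had 13.8 and 34.7, neither above DMSO replicate 1. Both P5091 libraries, at 31.3 and 34.5, lay between the DMSO values. The limma log2 difference of EPZ-6438 from DMSO was 0.76 ± 0.60 (SE) there. The second limma fit gave 0.82 ± 0.30 (adjusted p = 0.182), so a higher count at this end is not established.

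**Figure D1:**
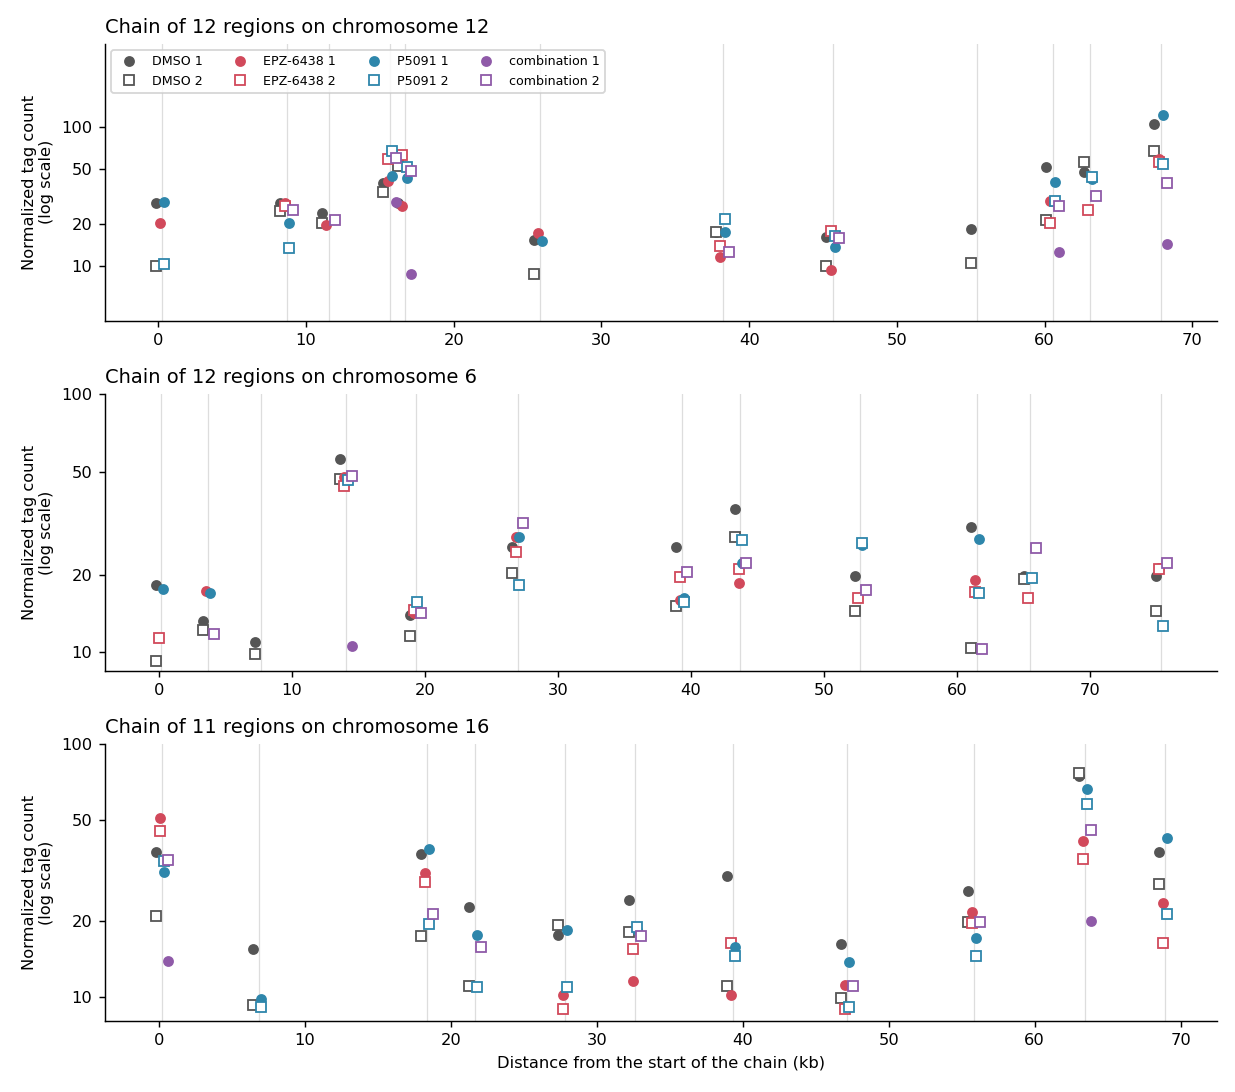
Normalized tag count (log axis) of each region in the 3 chains with the most regions, against distance from the start of the chain in kb. Each symbol is 1 FOXA1 library (filled circles replicate 1, open squares replicate 2; the 4 treatments are set slightly apart along the axis), grey lines mark the regions, and a missing symbol means that the library had no peak there. Most regions have 10 to 50 tags and a few stand above them in at least 1 library, such as the region of 106.0 and 67.3 tags in DMSO at the right end of the chromosome 12 chain.

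Within a chain, the tags were shared unevenly. The strongest region held a median of 35.0% of the summed tag count of its chain in DMSO replicate 1 and 35.6% in DMSO replicate 2. The share was 37.7% to 38.1% in the 5 treated libraries other than combination replicate 1, and 52.5% in that library. The strongest region was the same in DMSO replicates 1 and 2 in 287 of 393 chains, or 73.0%. Against DMSO replicate 1 it was the same in 65.9% to 80.2% of chains in the 5 treated libraries, a range that holds the value between the DMSO replicates. In 163 chains, 41.5%, it was the same in all 7 FOXA1 libraries without combination replicate 1. Regions at the ends of chains had a median of 26.3 tags in DMSO replicate 1 and 20.9 in replicate 2, against 27.1 and 23.8 in regions inside chains. With EPZ-6438 the ends had 23.9 and 26.0, against 24.3 and 26.0 inside.

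Most members kept a peak after treatment. The share of the 2218 members called was 82.7% and 84.4% in the EPZ-6438 libraries, 86.8% and 87.7% in the P5091 libraries, and 46.4% and 83.5% in the combination libraries. Of the 53079 other regions the same libraries called 85.4% and 85.7%, 85.1% and 88.7%, and 47.4% and 85.2%. The member share was below that of other regions in all 4 libraries with EPZ-6438: the difference was -2.68 and -1.22 percentage points with EPZ-6438 alone and -0.968 and -1.78 with the combination. With P5091 alone it was 1.77 points in the first library and -1.01 in the second. The exact 95% (Clopper-Pearson) interval of the member share was 81.1% to 84.3% for EPZ-6438 replicate 1 and 82.9% to 85.9% for replicate 2. These intervals cover counting error only. Only 36 members, 1.62%, were called in none of the 6 treated libraries, against 1.53% of other regions.

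The longest chains had the lowest share of regions called in the libraries with EPZ-6438, and also in some libraries without it. In chains of 8 to 12 regions (253 regions) the EPZ-6438 libraries called 81.4% and 80.2% and combination replicate 2 called 78.7%. Regions alone in their chain (28787 regions) were called at 86.3%, 85.4% and 85.4% in those libraries. Chains of 6 to 7 regions had 81.8% and 85.5% in the EPZ-6438 libraries and 83.8% in combination replicate 2. The P5091 libraries called 86.6% and 86.2% of the regions in the longest chains, and 85.0% and 88.7% of the lone regions. The longest chains also had the lowest share of all sizes in P5091 replicate 2 and with K295A (68.4%), but not with WT (75.1%).

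Every region of a chain was called in 177 and 196 of 393 chains with P5091, in 141 and 160 with EPZ-6438, and in 8 and 157 with the combination. Both P5091 values lay above both values of each EPZ-6438 group. In combination replicate 1, 20 chains had no peak at any member. Across all 8 FOXA1 libraries every region was called in 3 chains, and across the 7 without combination replicate 1 in 39.

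Dense regions were stronger than other regions, and by a smaller margin wherever EPZ-6438 was present. The comparison uses regions called in all 8 FOXA1 libraries, 42.7% of members and 42.7% of other regions, and leaves out the other 1270 members. Their median tag counts in members and other regions were 46.5 and 40.2 in DMSO replicate 1, and 41.2 and 36.0 in DMSO replicate 2. They were 44.7 and 38.5, then 41.2 and 37.5, with P5091. With EPZ-6438 they were 36.7 and 35.4, then 39.0 and 38.2. With the combination they were 15.6 and 15, then 37.9 and 36.3.

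As a ratio of members to other regions, these medians gave 1.16 and 1.14 in DMSO, 1.16 and 1.10 with P5091, 1.04 and 1.02 with EPZ-6438, and 1.04 and 1.04 with the combination. The 4 libraries with EPZ-6438 did not overlap the 4 without it. One of these is the weak combination replicate 1, whose medians of 15.6 and 15 rest on few tags. With its ratio set aside, the libraries with EPZ-6438 had 1.04, 1.02 and 1.04, still below the 4 without. The regions compared still had to be called in it. The DMSO libraries chose the members, so their own ratios are a description. Within replicate 1 the 2 libraries with EPZ-6438 had 1.04 and 1.04 and the 2 without 1.16 and 1.16, and within replicate 2 they had 1.02 and 1.04 against 1.14 and 1.10. EPZ-6438 replicates 1 and 2 held 22589685 and 12299238 tags, and the part of depth and of the choice of members in these ratios was not tested. The mean input tags at members over those at other regions, recovered from the authors' ratios, were 1.03 and 1.03 in DMSO, 1.05 and 1.04 with P5091, 1.01 and 0.990 with EPZ-6438, and 1.02 and 1.03 with the combination. Each treatment had 1 input for both replicates, and the part of the input in the result was not tested. The HA libraries, from another experiment, gave 1.12 for WT and 1.11 for K295A at the members among these regions.

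**Figure D2:**
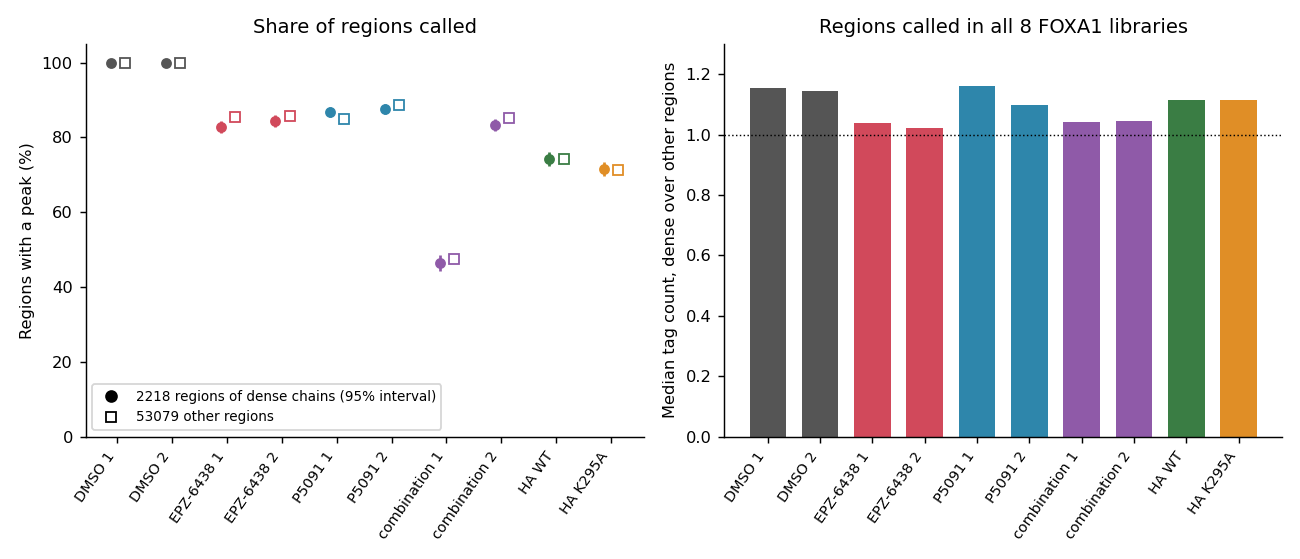
Left: percent of the dense regions (filled, with exact 95% interval) and of other regions (open) that hold a peak in each library. Right: median normalized tag count of dense regions over that of other regions, at regions called in all 8 FOXA1 libraries, with the dotted line at equality. The 4 libraries with EPZ-6438 lie between 1.02 and 1.04 and the 4 without between 1.10 and 1.16, while combination replicate 1 stands apart on the left at 46.4%.

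Tag counts were compared region by region with limma on log2 (tag count + 1) at the 24138 regions of all chromosomes called in all 8 libraries, with Benjamini-Hochberg adjustment over all of them. All differences below are on that scale. No region passed an adjusted p of 0.05 in any of the comparisons, so none of the members tested was called, beside a background of 0%. The smallest adjusted p of a member was 1 for EPZ-6438 against DMSO, 0.348 for the combination against DMSO and 0.271 for the 4 libraries with EPZ-6438 against the 4 without. At an unadjusted p under 0.05 the members numbered 9 of 233 regions for EPZ-6438, 0 of 11 for P5091, 192 of 3404 for the combination and 127 of 2148 for all 4 EPZ-6438 libraries. Without combination replicate 2, where only the weak replicate 1 stands for the combination, the fit called 723 of 955 members for the combination, 75.7% beside a background of 66.0%, and 569 for all EPZ-6438 libraries, 59.6% beside a background of 47.1%, all lower.

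The labels state no pairing of libraries by replicate number. In these data, departures of replicate 1 from its group mean correlated between groups at 0.148 to 0.488. The same model was therefore also run with a term for the replicate number after subtracting the median of each library, referred to as block and centring. For EPZ-6438 in 4 libraries against 4 without, that fit called 83 members, beside a background of 7.54% of all 24138 regions. Of these, 71 were lower, 7.49% of those tested beside a background of 4.05%, and 12 were higher, 1.27% beside a background of 3.49%. The member share was above the background for lower calls and below it for higher calls. edgeR with the replicate block called 82 members, 8.65% beside a background of 7.87%. Of these, 69 were lower, 7.28% beside 3.97%, and 13 were higher, 1.37% beside 3.90%. When 1 library was left out, the member share called in any direction was below that of all regions without P5091 replicate 1. It was above that of all regions without any other library. Leaving out 1 library at a time gave 8 to 115 members, and the lower exceeded the higher each time. The count fell most without P5091 replicate 1, to 8 beside a background of 1.10%. It also fell by more than 1.5 times without DMSO replicate 1 (49, beside 4.09%), DMSO replicate 2 (24, beside 2.45%), EPZ-6438 replicate 1 (29, beside 2.74%) or EPZ-6438 replicate 2 (21, beside 1.82%). The share of members called lower ranged over 0.829% to 9.95% in these 8 fits and was above that of all regions in each, from 0.829% beside 0.556% without P5091 replicate 1 to 9.95% beside 5.98% without combination replicate 2.

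For EPZ-6438 against DMSO the blocked and centred fit called 9 members, 0.949% of those tested beside a background of 0.671%. They were 2 higher beside a background of 0.315% and 7 lower beside 0.356%. edgeR with the block called 22, 2.32% beside a background of 1.59%. For the combination against DMSO the limma fit called 9 higher and 30 lower, 4.11% beside a background of 4.21%. The share in any direction was thus near the background, and the split was not: 3.16% lower and 0.949% higher in members, against 2.42% and 1.79% in all regions. edgeR with the block called 29, 3.06% beside a background of 3.21%, of which 23 were lower, 2.43% beside 1.67%. When 1 library was left out, the member share called for the combination in any direction was near or below that of all regions each time. For EPZ-6438 against DMSO it was near that of all regions without P5091 replicate 1. Without combination replicate 1, limma with block and centring called 8 members for the combination, beside a background of 0.558%, and 71 for EPZ-6438 in the libraries that were left, beside 3.93%. For the combination it called 4 without DMSO replicate 1 (beside 0.969%), 0 without DMSO replicate 2 (beside 0.191%, with 104 members at an unadjusted p under 0.05), 75 without combination replicate 2 (beside 7.85%) and 25 without EPZ-6438 replicate 1 (beside 2.49%). For EPZ-6438 against DMSO it called 2 without DMSO replicate 1 (beside 0.145%), 5 without P5091 replicate 1 (beside 0.528%), and 32 and 28 without combination replicates 1 and 2 (beside 1.61% and 2.05%). It called 0 without DMSO replicate 2, EPZ-6438 replicate 1 or EPZ-6438 replicate 2, beside 0%, 0.0164% and 0%, with 71, 85 and 82 members at an unadjusted p under 0.05. For P5091 against DMSO, for the 4 libraries with P5091 against the 4 without, and for the interaction of both compounds, limma with block and centring called no region, member or not, and edgeR with the block also called 0. At an unadjusted p under 0.05 the members numbered 20 of 533 regions, 38 of 1035 and 38 of 808 in limma, and 27 of 682, 41 of 1056 and 39 of 828 in edgeR.

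The median difference followed the number of regions in a chain. For EPZ-6438 against DMSO it was -0.20 in the members tested (quartiles -0.42 and 0.016) and -0.083 in all regions tested, and 73.5% of members were lower with EPZ-6438 against 58.7% of all. By chain size it was -0.047 for 12329 lone regions, -0.092 in chains of 2, -0.13 in chains of 3, -0.17 in chains of 4, -0.20 in chains of 5, -0.20 in chains of 6 to 7 and -0.28 in chains of 8 to 12 (94 regions). There was no step at the 5 regions where the rule sets in. The values ran in order across the sizes that the rule left out as well as those it kept.

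P5091 against DMSO gave -0.027 in members and -0.022 in all regions. Its medians by chain size lay between -0.018 and -0.034 up to chains of 7, with -0.072 in the longest. The combination gave -0.84 in members and -0.69 in all, and ran from -0.64 in lone regions to -0.88 in the longest chains. Most of that size rested on combination replicate 1: without it the medians were -0.23 in 1443 members and -0.097 in all. The distance between members and all regions hardly moved, at -0.15 with that library and -0.13 without. For the 4 libraries with EPZ-6438 against the 4 without, members gave -0.49 and all regions -0.38.

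The margin was present at each level of tag count. Tested regions were split into 3 groups of equal size by mean tag count. In the lowest group the EPZ-6438 median was -0.12 in 243 members and 0.024 in other regions. In the middle group it was -0.19 in 348 members and -0.064 in others, and in the highest -0.25 in 357 members and -0.16 in others. The difference of members from other regions was -0.15, -0.13 and -0.088. Under P5091 the corresponding differences were 0.012, -0.0054 and -0.015.

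**Figure D3:**
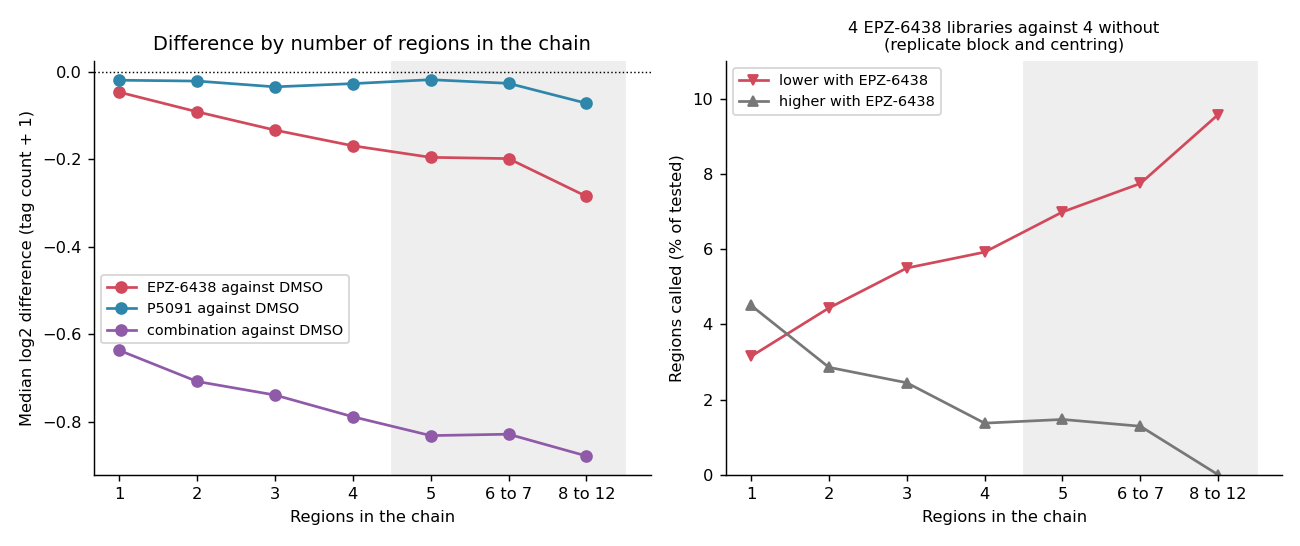
Left: median log2 difference against DMSO (tag count + 1) of regions called in all 8 libraries, by the number of regions in their chain, for each treatment. Right: percent of those regions called lower or higher in the 4 libraries with EPZ-6438 against the 4 without, in the fit with replicate block and centring. Grey marks the dense chains; the EPZ-6438 line runs from -0.047 to -0.28 while P5091 reaches -0.072, and calls to lower values run from 3.15% to 9.57% as calls to higher values run from 4.50% to 0%.

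For EPZ-6438 in 4 libraries against 4 without, with each library centred, the values of neighbouring members had a Pearson r of 0.044 over 580 pairs, and 56.2% of pairs moved in the same direction. By distance, member pairs at most 2.5 kb apart had r = 0.13 and 69.8% in the same direction (n = 53), against 0.30 and 62.2% over 556 pairs of all tested regions. At 2.5 to 5 kb they had 0.087 (n = 76) against 0.28 (n = 617), and at 5 to 12.5 kb -0.021 (n = 283) against 0.15 (n = 2083). Pairs of all regions more than 100 kb apart had 0.087 (n = 8540). Neighbours share libraries and regional depth, so these are descriptions. Of 183 chains with 3 or more tested regions, 45 had every tested region below the median of all regions, 5 had every one above it, and 133 were mixed. For P5091 in 4 libraries against 4 without, the same counts were 22, 19 and 142.

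The members with the smallest p for EPZ-6438 in 4 libraries against 4 without were lower in 3 chains. They were picked by that p, so a gap between the groups of 4 is a description and no added support. At chr9:3491032-3491397, in a chain of 7 regions, the tag count was 82.6 and 88.8 in DMSO, 88.7 and 75 with P5091, 25.2 and 37.4 with EPZ-6438 and 12.5 and 51.3 with the combination. All 4 libraries with EPZ-6438 were below all 4 without. The difference was -1.54 ± 0.42 (SE; limma adjusted p = 0.305, and 4.67e-05 with replicate block and centring, where it was -1.18 ± 0.18). WT and K295A gave 71.7 and 77.6 there.

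At chr3:194581458-194581822, in a chain of 5, the count was 50.5 and 43.5 in DMSO and 58.1 and 33.9 with P5091. It was 21.7 and 13.8 with EPZ-6438 and 7.5 and 20.5 with the combination, again with no overlap. The difference was -1.57 ± 0.42 (limma adjusted p = 0.271, and 0.000419 with block and centring). A second region of the same chain, chr3:194592031-194592395, was among the 3 with the smallest p for the combination: it had 137.5 and 134.1 tags in DMSO, 130.5 and 114.4 with P5091, 108.5 and 72.4 with EPZ-6438, and 20 and 72.6 with the combination.

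At chr1:149844209-149844573, the last region of the chromosome 1 chain of 10, the count was 54.8 and 43.0 in DMSO and 23.5 and 13.0 with EPZ-6438. The combination gave 10.0 and 9.47, and P5091 gave 64.6 and 15.7. Here P5091 replicate 2 lay among the EPZ-6438 values, so the groups of 4 overlapped. The limma difference over 4 against 4 was -1.52 ± 0.40 (adjusted p = 0.271, and 0.00156 with block and centring).

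Some members went the other way. At chr5:22059977-22060380, the first region of a chain of 7, the count was 13.2 and 13.9 in DMSO, 14.4 and 21.8 with P5091, 29.2 and 30.1 with EPZ-6438, and 11.3 and 27.6 with the combination. The EPZ-6438 libraries were above DMSO and P5091, while combination replicate 1 was below them all. The difference over 4 against 4 was 0.54 ± 0.37 (limma adjusted p = 0.572, and 0.0165 with block and centring). At chr1:162159165-162159529, in a chain of 6, the count was 17.6 and 22.1 in DMSO, 15 and 45.4 with P5091, 28.8 and 61.0 with EPZ-6438, and 16.3 and 42.6 with the combination. Here replicate 2 was the higher library in all 4 groups, and the limma adjusted p was 0.595, and 0.00855 with block and centring. The other such region, chr20:2236087-2236451, had 15.4 and 11.6 tags in DMSO, 13.0 and 16.9 with P5091, 12 and 32.5 with EPZ-6438, and 11.3 and 32.4 with the combination. Neither WT nor K295A had a peak there.

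For EPZ-6438 alone against DMSO, the 3 members with the smallest p in the direction of higher counts included chr1:147113772-147114241, with 11.7 and 20.9 tags in DMSO and 37.2 and 39.8 with EPZ-6438. Both treated values lay above both controls, and the difference was 1.24 ± 0.57 (limma adjusted p = 1, and 0.0415 with block and centring). Another was chr5:153466758-153467122, with 30.0 and 12.8 tags in DMSO and 39.0 and 50.4 with EPZ-6438. Lower with EPZ-6438 was chr21:29795590-29795977, with 23.4 and 27.3 tags in DMSO and 7.53 and 16.3 with EPZ-6438. The combination gave 10.0 and 9.47 there and P5091 gave 11.1 and 18.8, so all 6 treated libraries were below both DMSO libraries. It had the smallest p of any member lower with P5091, -0.76 ± 0.44 (limma adjusted p = 1).

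Of the members with the smallest p for higher counts with P5091, chr1:207472009-207472395 had 11.7 and 15.1 tags in DMSO and 35.2 and 18.2 with P5091. The region chr11:80610421-80610834 had 10.2 and 12.8 in DMSO, 17.6 and 24.2 with P5091, 16.8 and 26.8 with EPZ-6438 and 10.0 and 38.7 with the combination. Its difference for the combination was 0.75 ± 0.51 (limma adjusted p = 0.395, and 0.0138 with block and centring). For P5091 in 4 libraries against 4 without, the region with the smallest p among the lower members was chr6:160839443-160839807, with -0.92 ± 0.42 (limma adjusted p = 0.84). Its counts were 106.0 and 67.9 in DMSO, 58.7 and 49.6 with P5091, 58.9 and 74.8 with EPZ-6438, and 13.8 and 56.8 with the combination. Both libraries with P5091 alone and both with the combination lay below the 4 others, though 58.7 with P5091 and 58.9 with EPZ-6438 nearly meet. The region was picked by that p, so the gap is a description and no added support.

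Summed over a chain, tag counts with treatment were below DMSO in most dense chains. The median sum over the 393 chains was 188.6 and 167.2 in DMSO, 174.2 and 158.6 with P5091, 140.77 and 148.7 with EPZ-6438, and 42.6 and 145.2 with the combination. All 4 libraries with EPZ-6438 were below all 4 without. A region without a peak adds 0 to a sum, and the rule gives every member a peak in both DMSO libraries, so the sums of treated libraries are set lower by the rule itself. Of all 20306 chains with a peak in all 8 libraries, 60.7% hold 1 region and so never take a 0. For P5091 the median difference was -0.12 in dense chains against -0.027 in single members. When the sum took only regions called in all 8 libraries, it was -0.027 for P5091, -0.21 for EPZ-6438 and -0.87 for the combination in 368 dense chains, against -0.021, -0.076 and -0.68 in all 19970 chains.

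**Figure D4:**
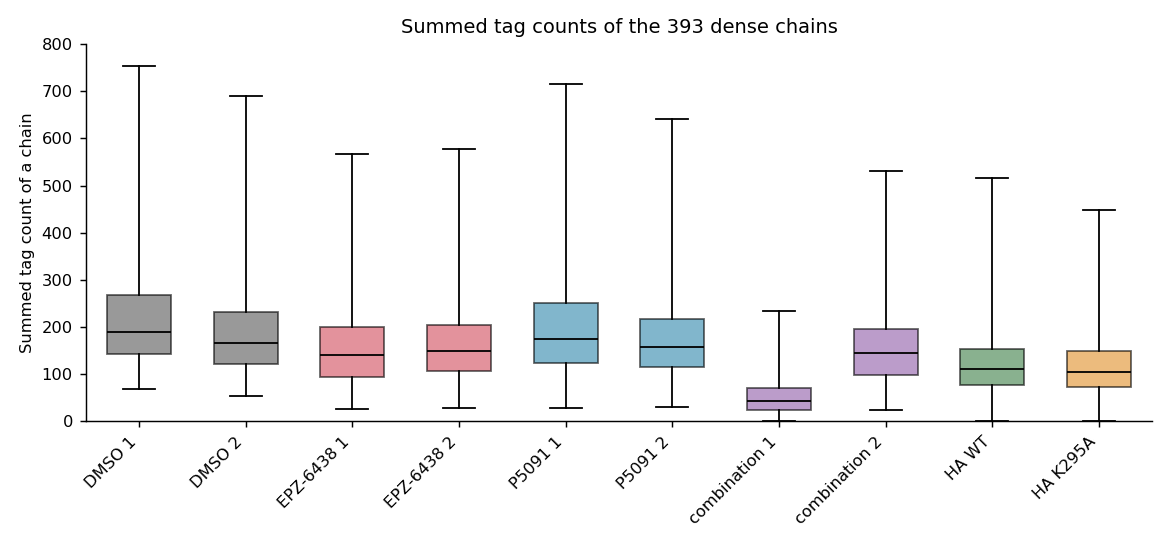
Summed normalized tag count of each of the 393 dense chains in each library (box, quartiles; line, median; whiskers, lowest and highest chain). Medians are 188.6 and 167.2 in DMSO, 174.2 and 158.6 with P5091, 140.77 and 148.7 with EPZ-6438, and 42.6 and 145.2 with the combination.

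limma on the chain sums tested 20306 chains, 373 of them dense, and called none of the dense chains in any comparison, beside a background of 0.0148% for the combination, 0.00985% for the 4 libraries with EPZ-6438 and 0% for the other 4 comparisons. At an unadjusted p under 0.05 the dense chains numbered 1 of 199 chains for EPZ-6438, 0 of 29 for P5091, 202 of 3411 for the combination and 101 of 1842 for all 4 EPZ-6438 libraries. Without combination replicate 2 the fit called 373 for the combination, beside a background of 75.4%, and 372 for the EPZ-6438 libraries, beside 59.5%. Sums over only the regions called in all 8 libraries, an alternative chosen after seeing the data, take no 0. On these, limma with block and centring called 37 of 368 dense chains for EPZ-6438 in 4 libraries against 4 without, 10.1% beside a background of 7.79%. Of these, 36 were lower, beside 4.15% of all chains, and 1 was higher, beside 3.64%. For the combination against DMSO it called 20, 5.43% beside a background of 4.48%: 19 lower, beside 2.63%, and 1 higher, beside 1.85%. For EPZ-6438 against DMSO it called 2, beside 0.686%, and for P5091 against DMSO 0, beside 0%, with 2 dense chains at an unadjusted p under 0.05.

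On the sums with a 0 for each uncalled region, the same fit called 62 dense chains for EPZ-6438 in 4 libraries against 4 without, beside a background of 5.06% (2.62% lower), and 55 for the combination, beside 2.81% (1.61% lower), all lower. edgeR with the block called 64, beside 5.42% (2.94% lower), and 33, beside 1.97% (1.16% lower). The rule fixes part of both the direction and the distance from the background here, so nothing is read from these counts. Leaving out 1 library at a time gave 4 to 164 for the 4 EPZ-6438 libraries: 4 without P5091 replicate 1 (beside 0.511%), 6 and 6 without DMSO replicates 1 and 2 (beside 0.753% and 0.335%), 18 and 13 without EPZ-6438 replicates 1 and 2 (beside 1.01% and 0.576%), and 164 without combination replicate 2 (beside 15.2%). For the combination it gave 5 without combination replicate 1, beside 0.281%. For EPZ-6438 against DMSO limma and edgeR called 0 dense chains, beside 0.064% and 0.276%, with 81 and 85 at an unadjusted p under 0.05. For P5091 both called 0, with 9 each at that level.

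The chain with the smallest p for EPZ-6438, for the combination and for the 4 against 4 was chr1:84634489-84666275, with 5 regions. Its sum was 130.2 and 122.0 in DMSO, 134.4 and 68.4 with P5091, 44.7 and 57.0 with EPZ-6438 and 7.5 and 57.5 with the combination. All 4 libraries with EPZ-6438 lay below all 4 without, and 2, 3, 1 and 3 of its 5 regions were called in them. The difference over 4 against 4 was -1.71 ± 0.45 (limma adjusted p = 0.172, and 0.00538 with block and centring). The chain of 10 at chr1:149782391-149844573 had sums of 312.9 and 251.4 in DMSO and 294.8 and 148.2 with P5091. It had 138.7 and 118.7 with EPZ-6438 and 25 and 127.8 with the combination, with 4, 6, 2 and 6 of 10 regions called, and the groups of 4 did not overlap. The chain chr6:119797169-119815584 had 96.5 and 142.2 in DMSO, 124.5 and 130.2 with P5091, 64.7 and 80.4 with EPZ-6438 and 8.75 and 58.3 with the combination, also with no overlap. In these sums an uncalled region counts 0, while the rule gives every member a peak in both DMSO libraries. Part of the direction is thus set by the rule, and chains named for a small p, the first among them, were picked on the same sums. The separations are descriptions only.

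Few chains had higher sums. For EPZ-6438 against DMSO, 95.2% of dense chains had a lower sum, against 62.5% of all chains, and over regions called in all 8 libraries the shares were 82.6% and 58.4%. The higher chain with the smallest p was chr11:134122352-134145011. Its sums were 178.4 and 176.5 in DMSO and 174.0 and 253.6 with EPZ-6438, so the treated values lay on either side of DMSO (0.24 ± 0.59, limma adjusted p = 1). For the combination, the 4 libraries with EPZ-6438 and the 4 with P5091, all 373 dense chains had negative values, against 93.7%, 86.9% and 94.7% of all chains. Over regions called in all 8 libraries the dense chains had 98.9%, 98.1% and 97.6%, against 92.0%, 84.8% and 93.2%. A dense sum can draw on several regions, whereas 60.7% of the 20306 chains hold 1, so these shares of lower sums are not like for like. For the 4 libraries with P5091, the medians over regions called in all 8 were -0.34 in dense chains and -0.32 in all chains. Among single regions the shares lower there were 93.6% of members and 92.7% of all. For P5091 against DMSO, 80.2% of dense chains had a lower sum, against 59.0% of all, and over regions called in all 8 libraries 59.2% against 53.6%. The lowest p among them belonged to chr5:88334335-88349748, with 106.7 and 108.5 in DMSO and 58.7 and 48.4 with P5091, against 79.2 and 101.6 with EPZ-6438 and 40.6 and 100.2 with the combination (-1.0 ± 0.63, limma adjusted p = 1).

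The strongest chains over the 6 treated libraries were not the longest. The first, chr6:138543957-138580537, had 8 regions and sums of 753.1 and 690.2 in DMSO, 715.0 and 640.3 with P5091, 532.1 and 577.3 with EPZ-6438, and 233.3 and 531.8 with the combination. The second, chr11:94555659-94579188, had 5 regions and sums of 745.1 and 581.7 in DMSO, 711.1 and 534.3 with P5091, 566.2 and 498.3 with EPZ-6438, and 193.1 and 448.2 with the combination. In the first chain the libraries with EPZ-6438 lay below those without. In the second, EPZ-6438 replicate 1 and P5091 replicate 2 overlapped. The other 3 were chr14:30361527-30395701, chr3:128038653-128079771 and chr16:23328433-23374122, with 6, 7 and 6 regions and sums of 524.3, 576.9 and 524.4 in DMSO replicate 1.

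The tagged proteins bound dense regions about as often as other regions. Peaks with WT were found at 1645 members, 74.2%, and with K295A at 1587, 71.6%, against 74.2% and 71.2% of other regions. The pGIPZ library had a peak at 1 member and the shFoxA1 library at 0, which allows a share of up to 0.166% by the exact 95% interval. Both tagged proteins had a peak at 1447 members (65.2%), WT alone at 198, K295A alone at 140 and neither at 433. Members with neither peak had a median of 17.6 tags in DMSO replicate 1, against 31.4 in members with a WT peak. With 1 library per condition there is no replicate check of any of these differences.

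At the 1447 members with both, the median log2 ratio of K295A to WT was -0.072 (quartiles -0.33 and 0.21), against -0.049 in other regions. K295A was at least 2-fold lower at 18 members, 1.24%, beside a background of 1.55%, and at least 2-fold higher at 20, 1.38%, beside a background of 1.00%. In 240 chains the median ratio was below 0 and in 151 above it, and no chain median passed 2-fold. Other regions also had a median below 0, and the same count over other chains is not given here, so the majority below 0 is not particular to dense chains. Every region was called with WT in 81 chains and with K295A in 76.

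**Figure D5:**
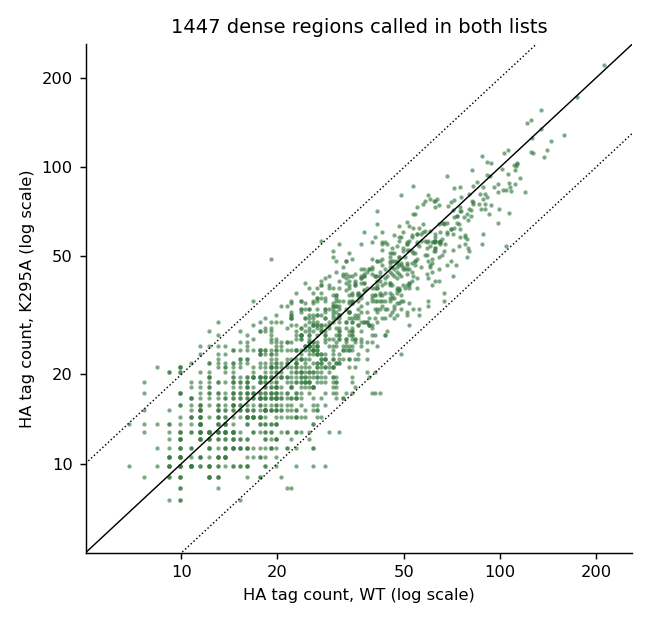
Normalized HA tag count with K295A against WT (both log axes) at the dense regions with a peak in both lists, 1 library each. The solid line is equality and the dotted lines are 2-fold; 18 regions lie on or below the lower line and 20 on or above the upper one.

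Among the 94 chains with 5 or more regions called with both, the lowest median ratio was -0.58 at chr5:22059977-22099923, whose sums were 295.5 with WT and 213.3 with K295A. This is also the chain whose first region was higher with EPZ-6438. Its sums in DMSO were 138.3 and 109.7. The median sum over all 393 chains was 111.4 with WT and 105.4 with K295A. The next were chr11:63593963-63634132 and chr16:48263066-48332168, both at -0.50. The highest was chr8:6571398-6606106, at 0.46, with 128.9 for WT and 161.9 for K295A, followed by chr11:130506898-130524532 at 0.42 and chr18:41736851-41769859 at 0.39.

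The share of a chain called with WT reached both ends of the scale. At chr3:174780877-174845427, 10 of 10 regions were called with WT and 7 with K295A, with sums of 250.2 and 223.0. At chr1:222839387-222868210 none of 5 regions was called with either protein. The latter was also weak in FOXA1, with sums of 135.4 and 85.3 in DMSO, 89.4 and 76.2 with P5091, 40.7 and 65.9 with EPZ-6438, and 0 and 67.1 with the combination. The strongest region of a chain was the same as in DMSO replicate 1 in 48.5% of chains with WT and 51.3% with K295A, less often than in any FOXA1 library.

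The peak caller required a peak to exceed its surroundings of 10 kb at least 4-fold, a distance within which dense regions have neighbours. The median fold over that window was 10.7 to 14.6 at members in the 8 FOXA1 libraries and 13.6 to 21.3 at other regions, lower at members in each library. Over all putative FOXA1 peaks this filter removed 1.27% to 6.06% per library. What it removed inside dense chains was not analysed here, and its part in the calls was not tested. Within the spans of the dense chains lay 77 and 170 further DMSO peaks outside the members, and 40 to 246 in the treated libraries. WT gave 326 such peaks and K295A 272, the most of the libraries.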

How the data were processed

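The submitters' processing notes name HOMER 4.2, Bowtie2 and hg19. Per the file headers, the authors called peaks library by library with a false discovery limit of 0.001 and required a 4-fold excess of tags over the surrounding 10 kb; the FOXA1 lists were also filtered against input. The deposited normalized tag count is a signal value scaled to 10000000 tags per the file headers. The deposited score served only for stricter thresholds, and the deposited fold over the surroundings or over input is the caller's own ratio. Deposited whole-number total tag counts were given for 3 libraries, and tags recovered from the normalized values equalled them for 97.3%, 100% and 100% of peaks. These recovered counts were used in edgeR.

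A region took, in each library, the value of the highest peak that shared at least 1 base with it; for chain sums an uncalled region counted 0. limma 3.58.1 (trend on, R 4.3.3) was run on log2 (tag count + 1) with all 4 groups, at regions called in all 8 libraries and at chains with a peak in all 8; edgeR 4.0.16 (quasi-likelihood, TMM) was an alternative. Merging, chaining and fitting were tested on simulated data. Replicate numbers come from the titles. Over the regions tested, the departures of replicate 1 from the mean of its group correlated between groups at 0.148 to 0.488, all 6 above 0.1, so blocked values are given beside the results they change. Centring subtracts the library median over tested regions.

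The members and lists were chosen with earlier results of these data known. The text names the longest and strongest chains, the chains and regions with the smallest p per comparison, and those with extreme WT or K295A values; of the 3 per direction, those that repeat another or add no pattern are left out. Leaving out libraries in the blocked fit and sums over regions called in all 8 were added after seeing the data. Sequences and gene annotation were not used here.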

Additional observations from a re-analysis of the deposited data

How the results depend on the processing

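The distance between the median of dense regions and that of all regions tested stayed below 0 under every alternative run for EPZ-6438 against DMSO (-0.20 to -0.095), the combination (-0.19 to -0.090) and the 4 libraries with EPZ-6438 (-0.17 to -0.086), and changed sign for P5091 (-0.065 to 0.019) and the 4 libraries with P5091 (-0.045 to 0.0050). Counts of calls depended on the fit. The cause was not tested.

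The replicate block alone left the counts of dense regions and chains at 0. With replicate block and centring, dense regions called were 9 for EPZ-6438, 39 for the combination and 83 for the 4 EPZ-6438 libraries, and edgeR with the replicate block gave 22, 29 and 82. Centring alone and edgeR without the block each gave 1 for the 4 EPZ-6438 libraries. Regions called in at least 4 of 8 gave 2 for the combination and 3 for the 4 EPZ-6438 libraries. Dense chains called were 55 and 62 for the combination and the 4 EPZ-6438 libraries with replicate block and centring, 33 and 64 in edgeR with the block, and 5 for EPZ-6438 with the libraries of the contrast alone. Sums over regions called in all 8, with block and centring, gave 2, 20 and 37.

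Leaving out 1 library at a time gave 0 dense regions for EPZ-6438 and P5091, 0 to 723 for the combination, 0 to 569 and 0 to 324 for the 4 libraries with EPZ-6438 or P5091, and 0 to 246 for the interaction; in each case the highest came without combination replicate 2. For chains the ranges were 0 to 373, 0 to 372, 0 to 370 and 0 to 342. With the block and centring, regions ranged over 0 to 32 (EPZ-6438), 0 to 75 (combination) and 8 to 115 (4 EPZ-6438 libraries), and chains over 0 to 15, 0 to 159 and 4 to 164, with 0 to 48 and 0 to 28 for the 4 P5091 libraries and the interaction. The median of dense regions for EPZ-6438 ranged over -0.28 to -0.11, for the combination over -1.38 to -0.12, and their distances from all regions over -0.13 to -0.095 and -0.17 to -0.090. For P5091 the distance ranged over -0.065 to 0.019. A lone library is assumed to vary like the other groups.

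For the combination the median was -0.16 when centred, with block and centring, in edgeR and in edgeR with the block, and -0.12 after quantile normalization. Its distance from all regions was -0.12 after quantile normalization, -0.14 with a pseudocount of 5 and with centres at most 10 kb or 15 kb apart (-0.14), -0.13 in chains of 4 or more and -0.19 in chains of 8 or more. In chains of 4 or more and of 8 or more it was -0.098 and -0.20 for EPZ-6438, and in chains of 8 or more -0.050 for P5091 and -0.17 for the 4 EPZ-6438 libraries.

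The number of members depended on the rule: 1092 regions in 201 chains with centres at most 10 kb apart, 3722 in 640 at 15 kb, 4902 in 1064 for chains of 4 or more, 253 in 29 for 8 or more, and 352 in 66 where both DMSO scores were at least their median. With scores at least the pooled median, the member share called was 74.3% and 75.7% in DMSO, 71.6% and 69.2% with P5091, 75.1% and 56.3% with EPZ-6438, 20.2% and 53.7% with the combination, 53.8% with WT, 53.7% with K295A and 0% in pGIPZ. With the peak centre inside the region it was 86.2% in P5091 replicate 1. Depth limits weak regions: the caller needed 10 to 14 tags in FOXA1 libraries.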
